A study of Mus musculus with 2 samples.

Results

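Cyp11b1 and Cyp11b2 encode the last enzymes of corticosteroid synthesis, 11-beta-hydroxylase and aldosterone synthase. Both genes were taken by their symbols in the transcript table of 1 quantification and joined by gene ID to the other tables. Each symbol gave 1 gene ID, so the pair is 2 of 55536 annotated genes. Total RNA of adrenal glands from B6CASTF1/J female mice aged 10 days, hybrids of C57BL/6J and CAST/EiJ parents, was sequenced in 2 libraries from 300 ng of RNA each, with ERCC spike-in RNA added. Both libraries belong to 1 untreated group and are numbered as biological replicates 1 and 2. Female 03 is named for the tissue of replicate 1 and female 04 for that of replicate 2, yet both library descriptions name female 03 and both samples have the same donor entry. Whether the libraries come from separate animals is thus not settled, and the SDs measure only the spread between these samples, whose content of kidney and liver markers differed, as described below with the zone markers.

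Both enzymes are cytochrome P450s of the inner mitochondrial membrane and receive electrons from ferredoxin, which ferredoxin reductase loads. Cyp11b1 works mainly in the zona fasciculata, where it turns deoxycorticosterone into corticosterone, the main glucocorticoid of mice, under the control of ACTH. Cyp11b2 works in the thin outer zona glomerulosa, where it carries deoxycorticosterone on to aldosterone under the control of angiotensin II and potassium. In humans the genes are close neighbours as well, and a fused copy of them causes an inherited form of aldosterone excess.

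The pair lies head to tail on the minus strand of mouse chromosome 15 in mm10. Cyp11b1 (ENSMUSG00000075604.5) runs from 74834125 to 74841643 and Cyp11b2 (ENSMUSG00000022589.7) from 74851010 to 74856318, with 9366 bases between them. Annotation M21 gives each gene 1 protein-coding transcript of 9 exons. The coding parts are nearly equal, at 1503 bases for Cyp11b1 and 1506 for Cyp11b2, and the coding parts of their exons match in length except in the fifth, which has 3 more bases in Cyp11b2. The untranslated ends are not alike. The 3' UTR of Cyp11b1 has 1631 bases, 51.5% of its 3165-base transcript, and that of Cyp11b2 has 32 bases of 1625. RefSeq, on GRCm38.p6, ends Cyp11b1 767 bases earlier and Cyp11b2 392 bases later. Reads from that last stretch of Cyp11b2 had no place in the annotated transcript. The effect of either difference in the 3' end on the levels of the pair and on their ratio was not tested.

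The annotated coding sequences were aligned, because reads that fall where the genes are identical cannot be assigned to either one by sequence. Variants of the CAST/EiJ parent were not considered in these sequences. Of 1503 aligned bases 1309 were identical, or 87.1%, and 404 of 501 aligned codons stood for the same amino acid. Identity was uneven along the gene. It was 99.2% in exon 1, 96.4% in exon 6 and 94.9% in exon 7, and lowest in exon 5 at 66.5% and exon 3 at 78.5%. The longest identical run had 244 bases and stretched from exon 1 into exon 2, at coding positions 26 to 269 of both genes. It is shown because it is the stretch where the pair is hardest to tell apart, with the bases of exon 2 in capitals.
Cyp11b1 and Cyp11b2, shared run: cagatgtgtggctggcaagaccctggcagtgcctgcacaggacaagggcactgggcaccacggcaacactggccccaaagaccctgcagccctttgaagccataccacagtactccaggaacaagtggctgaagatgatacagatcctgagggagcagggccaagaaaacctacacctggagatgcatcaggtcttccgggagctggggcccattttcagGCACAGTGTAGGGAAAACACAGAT

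The opposite case is a 60-base window of exon 3 with 24 differing bases, the most found in any gapless window of that size within 1 exon. Reads from here carry many bases that name their gene. The window covers coding positions 523 to 582 of both genes, at chr15:74839246-74839305 for Cyp11b1 and chr15:74853815-74853874 for Cyp11b2, both on the minus strand of mm10. Capitals mark the bases that differ.
Cyp11b1: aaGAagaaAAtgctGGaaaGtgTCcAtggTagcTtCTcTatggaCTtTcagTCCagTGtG
Cyp11b2: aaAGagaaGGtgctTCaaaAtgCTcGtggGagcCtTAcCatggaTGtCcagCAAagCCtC

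The heme-binding stretch of exon 8, which holds the cysteine that every cytochrome P450 uses to bind its heme iron, was the same in both genes over all 30 bases. It lies at chr15:74836275-74836304 in Cyp11b1 and chr15:74851461-74851490 in Cyp11b2. The cysteine codon, number 448 in Cyp11b1 and 449 in Cyp11b2, is in capitals.
Both genes, heme-binding stretch: tttggctttggggtgcgccagTGCctgggg

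**Figure D1:**
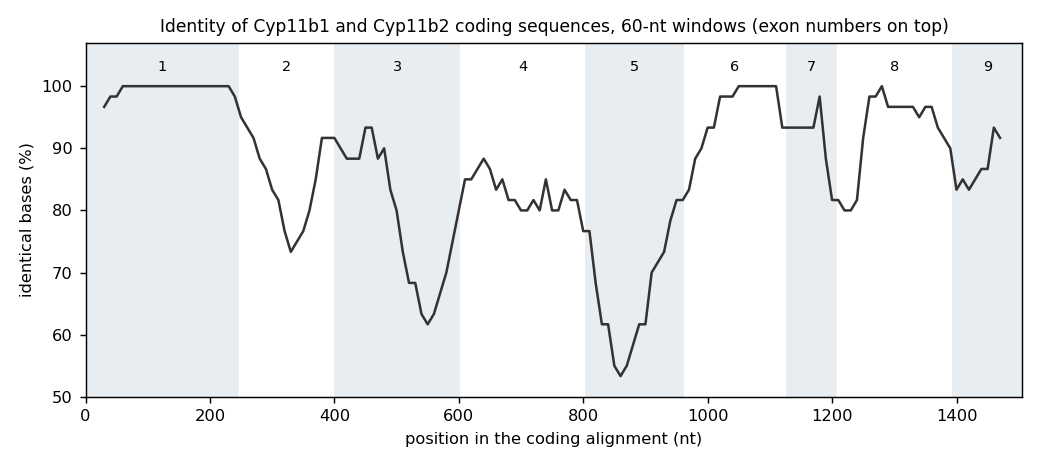
Percent of identical bases between the coding sequences of Cyp11b1 and Cyp11b2 in 60-base windows (y axis) along the alignment (x axis, in nt), with exons shaded in turn and numbered. Exon 1 is nearly identical at 99.2%, and exons 3 and 5 are the least alike at 78.5% and 66.5%, with the 3 gap bases of exon 5 counted as differences in the windows.

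Shared windows were a larger share of Cyp11b2 than of Cyp11b1, whose transcript is longer. Of all 100-base windows of the transcripts, 171 were found in both genes, which is 5.58% of the windows of Cyp11b1 and 11.2% of those of Cyp11b2. At 31 bases the shared windows were 12.9% of Cyp11b1 and 25.3% of Cyp11b2. All shared windows were wholly coding. No other transcript of the annotation held a window of 75 or 100 bases of either gene. At 31 bases 2432 other transcripts shared a window with Cyp11b1 and 0 with Cyp11b2.

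The level of each gene was read from the deposited gene table, as TPM, a transcript level corrected for transcript length and for the size of the library. Cyp11b1 was far the more abundant of the pair. Cyp11b1 stood at 361 TPM in replicate 1 and 384 TPM in replicate 2, or 372 ± 16.6 TPM (SD, n = 2). Cyp11b2 stood at 32.0 TPM in replicate 1 and 26.1 TPM in replicate 2, or 29.1 ± 4.19 TPM (SD, n = 2). The libraries thus ordered opposite ways for the pair: Cyp11b1 was the higher in replicate 2 and Cyp11b2 in replicate 1. By mean TPM, Cyp11b1 ranked 97 and Cyp11b2 ranked 2259 among 22015 nuclear protein-coding genes. In bulk tissue such as this, fewer cells of a type and less RNA per cell cannot be told apart.

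The expected counts behind these levels were large for Cyp11b1, at 37218 in replicate 1 and 36810 in replicate 2. For Cyp11b2 they were 1645 in replicate 1 and 1246 in replicate 2. The libraries held 35287787 counts on annotated genes in replicate 1 and 33068243 in replicate 2. Counting error is thus small for both genes beside the spread between libraries, whose coefficient of variation of TPM was 4.45% for Cyp11b1 and 14.4% for Cyp11b2.

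The same table gives a posterior mean of TPM with credibility bounds. These bounds cover more than the uncertain division of reads. For Cyp11b1 in replicate 1 they spanned 2.04% of the posterior mean, while the posterior SD of its count was 0.0526%. The level of the bounds was not given in the sources used here. For Cyp11b1 the posterior mean was 353 TPM with bounds of 350 to 357 TPM in replicate 1 and 376 TPM with bounds of 372 to 380 TPM in replicate 2. For Cyp11b2 it was 31.4 TPM with bounds of 29.7 to 33.1 TPM in replicate 1 and 25.6 TPM with bounds of 24.0 to 27.2 TPM in replicate 2. The bounds did not overlap between the libraries for either gene, which was so for 15.5% of 18883 genes with enough counts. Relative to the posterior mean the bounds were wider for Cyp11b2, at 10.7% in replicate 1 and 12.4% in replicate 2, than for Cyp11b1 at 2.04% and 2.06%.

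The posterior SD of the count was the same number of reads for both genes of a library, 19.6 in replicate 1 and 18.1 in replicate 2. Set against the counts, that SD was 0.0526% in replicate 1 and 0.0491% in replicate 2 for Cyp11b1, and 1.19% and 1.45% for Cyp11b2. The uncertainty in dividing reads was thus relatively larger for the rarer transcript.

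The TPM of Cyp11b1 lay above its own upper bound in both libraries, while that of Cyp11b2 lay within its bounds. TPM exceeded the posterior mean by nearly the same factor, 1.02, for both genes in both libraries. The median of that factor was also 1.02 over genes with 1 transcript and at least 100 counts. Lying above the upper bound was rare, at 0.672% in replicate 1 and 0.793% in replicate 2 of all genes with at least 100 counts, and at 1.58% and 1.91% of those with 1 transcript. Among genes with 1 transcript and at least 20000 counts, 20 of 25 in replicate 1 and 21 of 26 in replicate 2 lay above their upper bound.

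**Figure D2:**
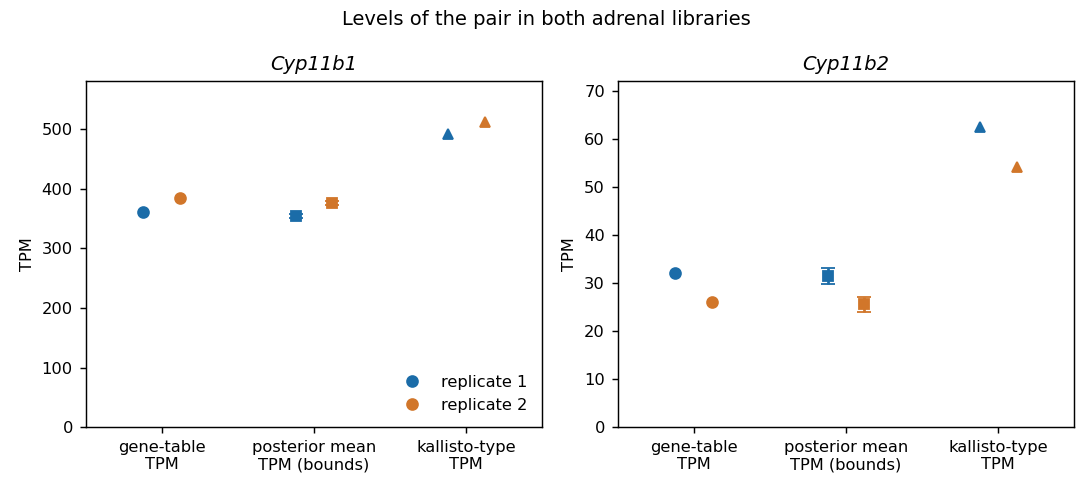
TPM (y axis, from 0) of Cyp11b1 (left) and Cyp11b2 (right) in replicate 1 and replicate 2, as the gene-table TPM, the posterior mean with its deposited bounds, and the TPM of a second, kallisto-type quantification. Cyp11b1 is at 361 and 384 TPM and Cyp11b2 at 32.0 and 26.1 TPM in the gene table, and both are higher in the second quantification.

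A second quantification was deposited for each library, with the column names of kallisto. It placed more reads on both genes. For Cyp11b1 it gave 38427 counts in replicate 1 and 37557 in replicate 2, which is 1.03 and 1.02 times the gene-table counts. For Cyp11b2 it gave 2238 counts in replicate 1 and 1816 in replicate 2, or 1.36 and 1.46 times. The additional reads of Cyp11b2 numbered 592 in replicate 1 and 571 in replicate 2, many more than the posterior SD of its count.

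Few genes gained as many counts in proportion. Among nuclear protein-coding genes with at least 100 counts, the median log2 ratio of second over first counts was 0.15 in replicate 1 and 0.13 in replicate 2. That of Cyp11b2 was 0.44 in replicate 1 and 0.54 in replicate 2, and 1.69% of the genes in replicate 1 and 0.902% in replicate 2 were as high or higher. Cyp11b1 lay below the median, at 0.05 in replicate 1 and 0.03 in replicate 2. These are shares of all such genes and no test. The part of the shared sequence in this difference was not tested.

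In TPM the second quantification gave Cyp11b1 491 TPM in replicate 1 and 511 TPM in replicate 2, and Cyp11b2 62.4 TPM in replicate 1 and 54.1 TPM in replicate 2. TPM was higher there for the median gene as well, by a log2 of 0.61 in replicate 1 and 0.58 in replicate 2. Cyp11b2 exceeded that, at 0.96 and 1.05, and 12% of genes in replicate 1 and 7.20% in replicate 2 were as high or higher. Cyp11b1 lay below the median, at 0.44 and 0.41. The effective lengths were shorter in the second quantification, by a log2 of 0.11 for Cyp11b1 and 0.23 for Cyp11b2 in each library.

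How strongly the gland leaned toward 1 enzyme was read from the ratio within each library, which needs no scaling between libraries. Cyp11b1 exceeded Cyp11b2 by 11.3-fold in replicate 1 and 14.7-fold in replicate 2 in TPM, a log2 ratio of 3.69 ± 0.27 (SD, n = 2). The deposited bounds allow 10.57-fold to 12.01-fold in replicate 1 and 13.7-fold to 15.8-fold in replicate 2. In the second quantification the ratio was 7.86-fold in replicate 1 and 9.46-fold in replicate 2, a log2 ratio of 3.11 ± 0.19. The excess of Cyp11b1 was many times the spread between libraries in both quantifications, but the quantifications differed by more than the libraries did. An exact test by flipping the sign in 2 libraries gives a two-sided p of at least 0.5, so none was run on this ratio.

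Put as shares, Cyp11b2 took 8.16% of the TPM of the pair in replicate 1 and 6.37% in replicate 2, and in the second quantification 11.3% and 9.56%. By counts it took 4.23% of the pair in replicate 1 (exact 95% Clopper-Pearson interval 4.04 to 4.44) and 3.27% in replicate 2 (3.10 to 3.46). These intervals and every count floor given here cover counting error alone, since the labels state no molecular identifiers.

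The ratio was lower in replicate 1 than in replicate 2. The odds of a read belonging to Cyp11b1 rather than Cyp11b2 in replicate 1 were 0.766 times those in replicate 2 (95% interval 0.710 to 0.826), with p = 2.83e-12 by a two-sided Fisher's exact test on the counts. In the second quantification the odds ratio was 0.830 (0.779 to 0.885), with p = 9.33e-09 by the same exact test. This compares the libraries, not conditions, and takes reads as independent.

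**Figure D3:**
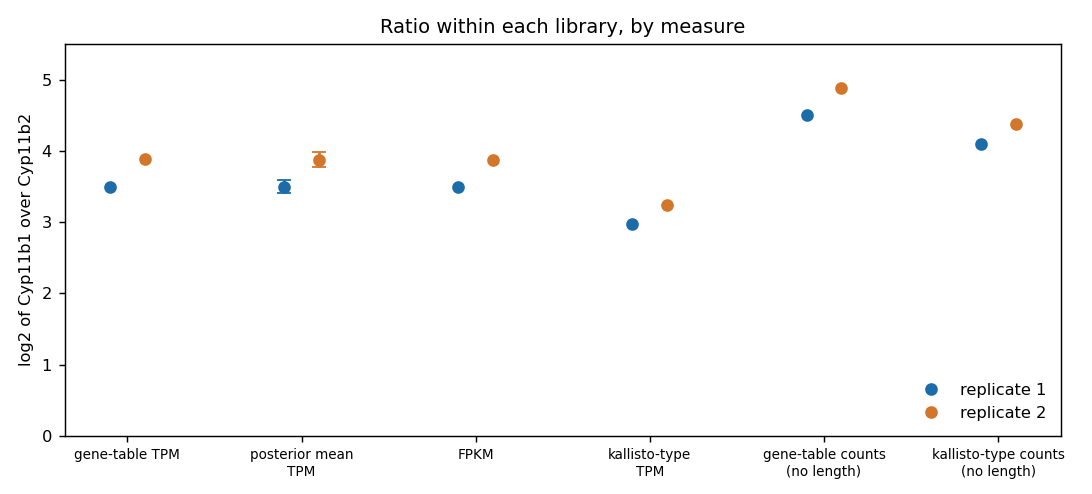
Log2 of Cyp11b1 over Cyp11b2 (y axis, from 0) in replicate 1 and replicate 2 for 6 measures, with the range that the deposited bounds allow drawn on the posterior mean. Replicate 1 is below replicate 2 for each measure, and the ratio is lowest in TPM of the second quantification, at 2.98 and 3.24.

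Each gene was then compared between the libraries by an exact two-sided binomial test on TMM-scaled counts, adjusted by the Benjamini-Hochberg method over all 18883 genes tested. Cyp11b1 was lower in replicate 1, by 0.908-fold of replicate 2 (95% interval 0.894 to 0.921), a log2 ratio of -0.14 with adjusted p = 2.85e-38 by the exact test. Cyp11b2 was higher in replicate 1, by 1.19-fold (95% interval 1.10 to 1.28), a log2 ratio of 0.24 with adjusted p = 4.82e-05 by the exact test. Both genes thus passed an adjusted p of 0.05, as did 26.5% of all genes tested. Neither reached a 2-fold difference as well, which 6.85% of genes did. Among all genes tested, 52.2% differed by at least as much as Cyp11b1 and 34.6% by at least as much as Cyp11b2. These shares include genes with few counts, whose ratios vary more by counting error, so they do not rank the pair among well-counted genes. The test has no replicate check.

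In the second quantification the difference of Cyp11b2 shrank to a log2 ratio of 0.12, with adjusted p = 0.0421 by the exact test, while that of Cyp11b1 was -0.15. In total the gene counts of the libraries differed by a mean chi-square of 57.8 per gene, so the files do not hold 1 library deposited again.

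The zone markers were set beside the pair, from lists chosen with earlier results of these data known. Passing toward a replicate here means with the higher TMM-scaled count there. Of the 10 other glomerulosa markers, 4 passed an adjusted p of 0.05 toward replicate 1, as Cyp11b2 did. Of the rest 2 passed toward replicate 2 and 4 did not pass. The first were the potassium channel gene Kcnk9 with a log2 ratio of 0.27, Vsnl1 at 0.43, the Wnt ligand gene Wnt4 at 0.31 and Lef1 at 0.31, and the others were Dab2 at -0.05 and Agtr1a at -0.12. In gene-table TPM Lef1 and Agtr1a ordered the opposite way. Lef1 stood at 3.23 TPM in replicate 1 and 3.54 TPM in replicate 2, and Agtr1a at 42.2 and 41.4 TPM. Of the 5 other fasciculata markers, 4 passed toward replicate 2, as Cyp11b1 did, and 0 toward replicate 1. Those were Scarb1, the HDL receptor, at -0.55, Mrap at -0.36, Abcb1b at -0.35 and the aldo-keto reductase gene Akr1b7 at -1.43, which alone passed 2-fold. Mc2r, the ACTH receptor, stood at -0.07 and did not pass. The median was 0.10 over the other glomerulosa markers and -0.36 over the other fasciculata markers, against 0.01 over all genes tested. In either direction 26.5% of all genes tested passed, and 6.85% passed with 2-fold as well. Those shares include genes with few counts, which pass less readily than well-counted markers.

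Of the gland's other cells, 1 of 3 X-zone, 3 of 5 capsule and 1 of 5 medulla markers passed toward replicate 2. Toward replicate 1, 4 medulla markers passed. The shares over all genes tested, in either direction, were 26.5% and, with 2-fold as well, 6.85%. Of the markers of tissue from outside the gland, those of liver, kidney and muscle differed by more than 2-fold and those of brown fat did not. All 8 liver markers were more than 2-fold higher in replicate 1, with a summed 5899 TPM in replicate 1 and 1135 TPM in replicate 2. All 10 kidney markers were more than 2-fold higher in replicate 2, with a summed 1.07 TPM in replicate 1 and 252 TPM in replicate 2, and the podocyte gene Nphs1 had 0 counts in replicate 1. Of 6 skeletal muscle markers 5 were called higher in replicate 1 and 1 lower, summing to 2986 TPM in replicate 1 and 1033 TPM in replicate 2. The brown fat markers summed to 3158 TPM in replicate 1 and 3758 TPM in replicate 2, and 0 of 6 reached 2-fold. The part of these tissues in the differences of Cyp11b1, Cyp11b2 and the markers of the gland was not tested.

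**Figure D4:**
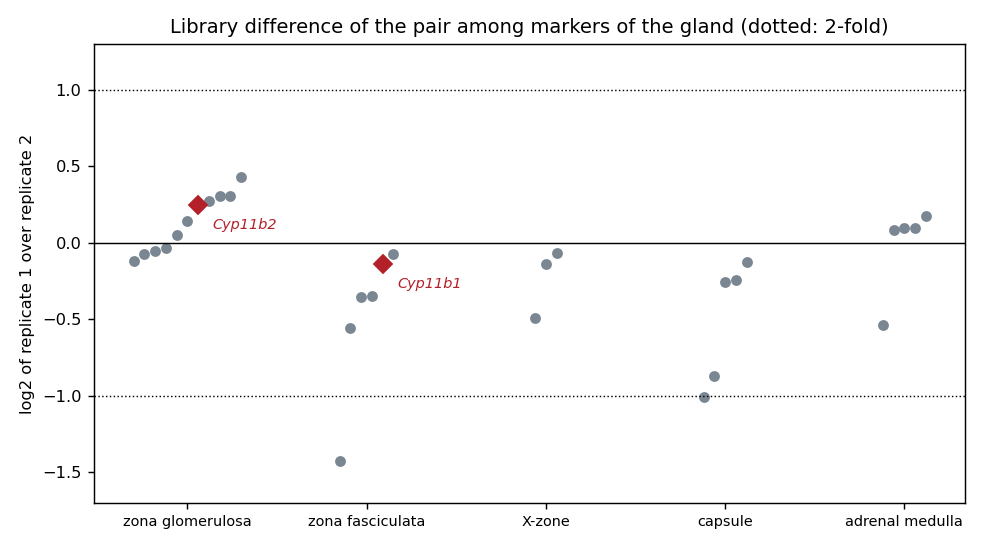
Log2 of replicate 1 over replicate 2 (y axis, TMM-scaled counts) for each marker of 5 lists of the gland (x axis), with Cyp11b1 and Cyp11b2 as red diamonds and dotted lines at 2-fold. Cyp11b2 at 0.24 sits among glomerulosa markers that lie on both sides of 0, and Cyp11b1 at -0.14 among fasciculata markers that all lie below 0.

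Along the corticosteroid route the pair stood at its lower end. Cyp11b1 was the fifth and Cyp11b2 the sixth of 7 genes by mean TPM. Above them were Hsd3b1, the 3-beta-hydroxysteroid dehydrogenase, at 1440 ± 22.5 TPM, Cyp21a1, the 21-hydroxylase that makes deoxycorticosterone, at 831 ± 18.7 TPM, Star, which carries cholesterol into mitochondria, at 698 ± 178 TPM and the side-chain cleavage enzyme gene Cyp11a1 at 527 ± 15.3 TPM. Below them was Hsd3b6, the dehydrogenase paralog of the glomerulosa, at 11.9 ± 0.559 TPM (SD, n = 2 each). Cyp21a1 and Star were neighbours in this order that overlapped, as Star reached 824 TPM in replicate 2 and Cyp21a1 818 TPM in replicate 1. No other neighbours overlapped between the libraries.

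Against the genes upstream of its step, the ratio of Cyp11b1 differed least between the libraries for Cyp11a1 and most for Star. Its log2 TPM ratio over Cyp11a1 was -0.52 in replicate 1 and -0.49 in replicate 2, and over Cyp21a1 it was -1.18 and -1.14. Over Hsd3b1 it was -2.01 in replicate 1 and -1.89 in replicate 2. Over Star it was -0.67 in replicate 1 and -1.10 in replicate 2, and Star itself was lower in replicate 1 by a log2 of -0.59, short of 2-fold. Cyp11b2 against its zone partner Hsd3b6 gave a log2 ratio of 1.38 in replicate 1 and 1.18 in replicate 2. Of the summed TPM of the 7 genes Cyp11b1 made up 9.57% in replicate 1 and 9.48% in replicate 2, and Cyp11b2 0.850% and 0.644%. Between the libraries 1 of the 7 route genes, Cyp11b2, passed an adjusted p of 0.05 toward replicate 1. Another 4 passed toward replicate 2, and none of the 7 reached 2-fold. Of all genes tested 26.5% passed in either direction, and 6.85% did so with 2-fold as well.

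**Figure D5:**
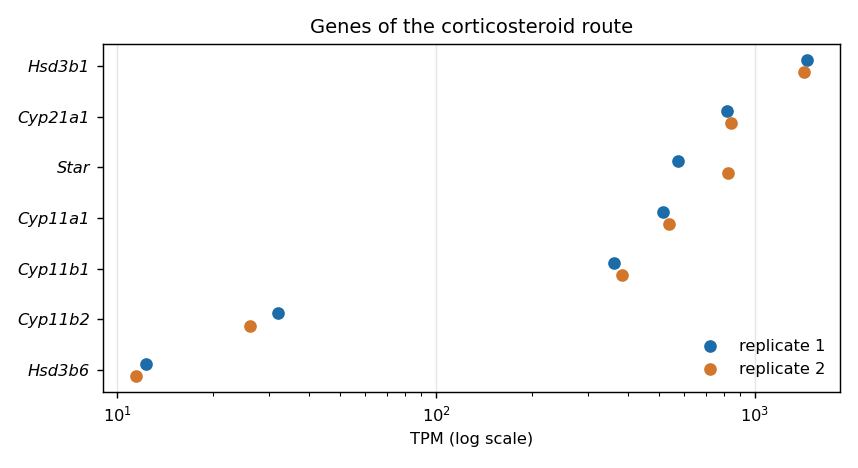
TPM (x axis, log scale) of the 7 genes of the corticosteroid route in replicate 1 and replicate 2, ordered by mean. Cyp11b1 lies just under Cyp11a1, while Cyp11b2 and Hsd3b6 lie more than 10-fold below the other 5.

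Among the 6 mitochondrial P450 genes of the list, Cyp11b1 was the second most abundant after Cyp11a1, and Cyp11b2 the third. The bile acid enzyme gene Cyp27a1 stood at 5.0 TPM in replicate 1 and 6.47 TPM in replicate 2. The vitamin D hydroxylase genes were hardly present, with Cyp27b1 at 8 counts in replicate 1 and 49 in replicate 2 and Cyp24a1 at 0 and 71 counts. Both are known from the kidney tubule, and both passed 2-fold toward replicate 2, as the kidney markers did. With the 2-fold limit 6.85% of all genes tested passed in either direction. The part of kidney tissue in the counts of these vitamin D genes was not tested. The electron donors of the pair were well expressed. Fdx1, the ferredoxin, stood at 217 TPM in replicate 1 and 311 TPM in replicate 2, below Cyp11b1 in each library, and its reductase gene Fdxr at 121 and 124 TPM. Fdx2, a ferredoxin paralog, stood at 12.7 and 11.4 TPM, and Por, which serves the microsomal P450s such as Cyp21a1, at 57.8 and 59.1 TPM. Of these 4 genes 3 passed toward replicate 2 and 0 toward replicate 1, beside 26.5% of all genes tested in either direction. Fdx1, with a log2 ratio of -0.61, was the farthest from 0.

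Genes that control aldosterone output were detected for the most part. Because this bulk tissue also held markers of brown fat and other tissues, their levels cannot be credited to the glomerulosa alone. Of 13 receptors, channels and pumps, 11 reached 1 TPM in both libraries, and the highest by mean TPM was the potassium channel gene Kcnk3 at 181 TPM in replicate 1 and 184 TPM in replicate 2. The angiotensin receptor genes Agtr1a and Agtr1b stood at 42.2 and 3.01 TPM in replicate 1 and 41.4 and 2.77 TPM in replicate 2. The calcium channel gene Cacna1h stood at 15.2 TPM in replicate 1 and 12.5 TPM in replicate 2, and the plasma membrane calcium pump gene Atp2b3 at 5.61 and 4.55 TPM. Kcnj5, whose mutations drive human aldosterone-producing adenomas, had 15 counts in replicate 1 and 27 in replicate 2. Between libraries 3 of the 13 passed toward replicate 1 and 4 toward replicate 2, and 0 reached 2-fold. Over all genes tested the shares in either direction were 26.5% and, with 2-fold as well, 6.85%.

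All 11 transcription factors of the list for Cyp11b promoters were detected in both libraries. The steroidogenic factor gene Nr5a1 stood at 72.8 TPM in replicate 1 and 83.1 TPM in replicate 2. Nr4a1, an early-response orphan receptor gene, stood at 31.6 TPM in replicate 1 and 81.9 TPM in replicate 2 and was the only factor past 2-fold, with a log2 ratio of -1.33. Nr0b1, a repressor of steroidogenic genes, stood at 5.67 and 4.17 TPM. In all 1 factor, Nr0b1 at 0.39, passed an adjusted p of 0.05 toward replicate 1 and 6 toward replicate 2. Among all genes tested 26.5% passed in either direction, and 6.85% with 2-fold as well.

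The chromosomal neighbours did not share the high level of Cyp11b1. Gml2, which runs on the opposite strand and overlaps the annotated 3' end of Cyp11b1 by 747 bases, had 0 counts in both libraries, and so had Gml beyond it. A count of 0 allows up to 3 counts, or 0.0850 CPM in replicate 1 and 0.0907 in replicate 2. The use of strand in counting was not given in the sources used here. Of the 5 annotated genes nearest on each side, 2 exceeded 1 TPM in both libraries. They were Ly6k, 34138 bases from Cyp11b1, at 6.41 TPM in replicate 1 and 8.84 TPM in replicate 2, and Ly6e, 98732 bases from Cyp11b2, at 103.0 and 112.4 TPM. Both belong to the Ly6 family of surface proteins that flanks the pair.

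With 2 libraries of 1 tissue, likeness to other genes can only mean like levels. By Euclidean distance in log2(TPM + 1) over the 2 libraries, the nuclear protein-coding genes nearest to Cyp11b1 were Col3a1 at a distance of 0.0199, Ndufa3 at 0.0504, Hadh at 0.0511, Ndufc1 at 0.0537 and Ubb at 0.0847. Those nearest to Cyp11b2 were Eri3 at 0.0167, Nktr at 0.0346, Ddx24 at 0.0389, Elf2 at 0.0398 and Flot2 at 0.0453. None of these 10 is a gene of the route.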

How the data were processed

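Values for 2 libraries of 1 group were used. The labels and deposited notes name mm10 as assembly and M21 as annotation. The authors' gene and transcript tables, with column names of RSEM, hold expected counts, TPM, FPKM and, per transcript, its percent of the gene. The bounds of TPM were deposited as a signal range. The other transcript table, with column names of kallisto, has the authors' estimated counts and TPM. Aligner, quantifiers, versions, use of strand and of CAST/EiJ variants were not given in the sources used here.

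Expected counts were rounded, and numbered features, ERCC sequences (0.979% and 0.929% of counts in replicates 1 and 2) were left out. Numbered features took 1.96e-05% and 1.8e-05%. Library sizes were scaled by TMM in edgeR 4.0.16 (R 4.3.3). With 1 group there is no contrast for its quasi-likelihood test. An exact binomial test compared the libraries wherever both libraries together had at least 20 counts, adjusted by Benjamini-Hochberg at 0.05, with and without a 2-fold limit. Log2 ratios use a prior count of 0.5. The test was tested on simulated data with counting error alone, which cannot show how it behaves with spread between samples. DESeq2 1.42.0 gave alternative size factors. Sequences came from GENCODE M21 transcripts, aligned with Biopython 1.88. Python 3.11.15 with scipy 1.17.1 was used.

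The members and gene lists were chosen with earlier results of these data known. Named are the pair, list members, the 5 nearest genes on each side and the 5 genes nearest in level. Fdx2 was matched through its older symbol in RefSeq. Alternatives were the second quantification, the posterior means, other units, pseudocount and denominator, other scalings, no count minimum and leaving out each replicate.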

Additional observations from a re-analysis of the deposited data

How the results depend on the processing

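Of 34 alternative values, 28 kept direction and call or moved by less than 1 SD, and 6 moved. Some of the 28 could not have moved. With 2 libraries, leaving out 1 always moves a mean by less than 1 SD. The ratio in FPKM equals that in TPM within a library, and the count minimum cannot change a log2 ratio. Mean TPM in the second quantification was 501 for Cyp11b1 and 58.2 for Cyp11b2, and over nuclear protein-coding genes alone it was 1117 and 87.0. The mean log2 ratio of Cyp11b1 over Cyp11b2 was 3.11 in the second quantification and 4.69 in expected counts with no length correction, where the longer Cyp11b1 transcript gains. Leaving out each replicate gave 361 to 384 TPM for Cyp11b1, 26.1 to 32.0 TPM for Cyp11b2 and log2 ratios of 3.49 to 3.88. No library difference of the pair changed direction under total count, DESeq2 or ERCC scaling, with no count minimum, or in the second quantification. Total count scaling gave -0.08 for Cyp11b1 and 0.31 for Cyp11b2 (log2, replicate 1 over replicate 2), against -0.14 and 0.24 with TMM. With 2 libraries of uncertain origin, no spread between animals can be given. No paired analysis was possible because the series has 1 group.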
